A study of Mus musculus with 12 samples.

Results

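Solute carriers, ABC transporters, ion channels, aquaporins and ion pumps move amino acids, sugars, metals, ions and water across membranes. They were selected by name among the mouse promoters whose contacts had been captured in haematopoietic stem cells (HSCs). A gene was taken when its symbol began with Slc, Abca to Abcg, Kcn, Scn, Cacn, Clcn, Trpc, Trpm, Trpv, Aqp, Atp1, Atp2, Atp6 or Atp8. This gave 83 of 3374 genes (2.46%), with 88 of 3781 captured promoters and 1896 of 89545 listed contacts. No gene named Scn, Cacn, Trpv, Abcc, Abcd or Abce was among them. The name rule also took in 5 genes whose products are not transporters themselves. These are Abcf1, an ABC protein that acts in translation, Kcnip3, a calcium-binding partner of potassium channels, the scaffold proteins Slc9a3r1 and Slc9a3r2, and Slc4a1ap, an adaptor protein.

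Promoter Capture-C cuts cross-linked chromatin with the enzyme DpnII, ligates fragments that lie close together and enriches the products of chosen promoters with probes. The fetal group was HSCs of B6129SF1 fetal liver at embryonic day 14.5, and the adult group was HSCs from the bone marrow of B6129SF1 mice aged 6 to 8 weeks. Both were sorted as Lin-Sca1+cKit+CD135- cells, a gate that also holds early progenitors, and no genetic change or treatment is labelled for either. Each group had 2 libraries in each of 2 batches, but only values pooled per group and batch were at hand. The spread between libraries is therefore unknown, and every difference below stands without a test against it. The labels do not say how many animals a library pooled. The remaining 4 samples, of the HPC7 cell line, were not analysed here.

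HSCs rely on uptake of amino acids, glucose and iron for growth, on efflux pumps to clear foreign compounds, and on ion pumps and channels to set calcium and membrane potential. Fetal liver HSCs divide often while most adult marrow HSCs rest. Fetal liver is also the main site of red cell formation before birth, and many transporters of iron, haem precursors, urea and nucleosides are abundant in that lineage.

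A contact joined a captured promoter fragment to a distal bin of 2 kb. A score above 0 marked it as called in a group, and scores run like −log10 p-values. The smallest called score was 1.3 in the first batch and 2.0 in the second. The first batch held 28 transporter promoters of 24 genes with 697 contacts, and the second held 60 promoters of 59 genes with 1199 contacts. Batches captured nearly separate genes and are given apart. Over the transporter contacts first-batch ligation counts summed to 7649 in fetal and 7086 in adult cells, and second-batch counts to 50869 and 43854. Captured transporter fragments had a median length of 658 bp (160 to 3299). Calls were unevenly spread, since 44 promoters had 20 or more calls over both groups, 21 had 5 or fewer listed contacts, 6 had no fetal call and 3 no adult call.

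RNA levels, given as FPKM (fragments scaled by transcript length and library size), divided the transporters evenly, but not alike within each class. Of 83 genes 42 were higher in fetal and 41 in adult HSCs, taking for each gene the promoter with most calls. Of these, 74 in the authors' deposited table bear a mark of differential expression, 37 in each direction. All 60 second-batch promoters carry that mark, as do all 1829 promoters listed for that batch, so the mark does not set transporters apart there. In the first batch 67.9% of transporter promoters were marked (19 of 28, 95% exact Clopper-Pearson interval 47.6 to 84.1), where 35.5% of all first-batch promoters were. First-batch RNA was mostly higher in adult cells, with 9 of 28 promoters (32.1%, interval 15.9 to 52.4) higher in fetal cells against 48.0% of all first-batch promoters. Among second-batch promoters 33 of 60 (55%) were higher in fetal cells against 45.9% of all. These intervals, here and below, cover counting error only, and neighbouring bins or promoters are not independent.

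**Figure D1:**
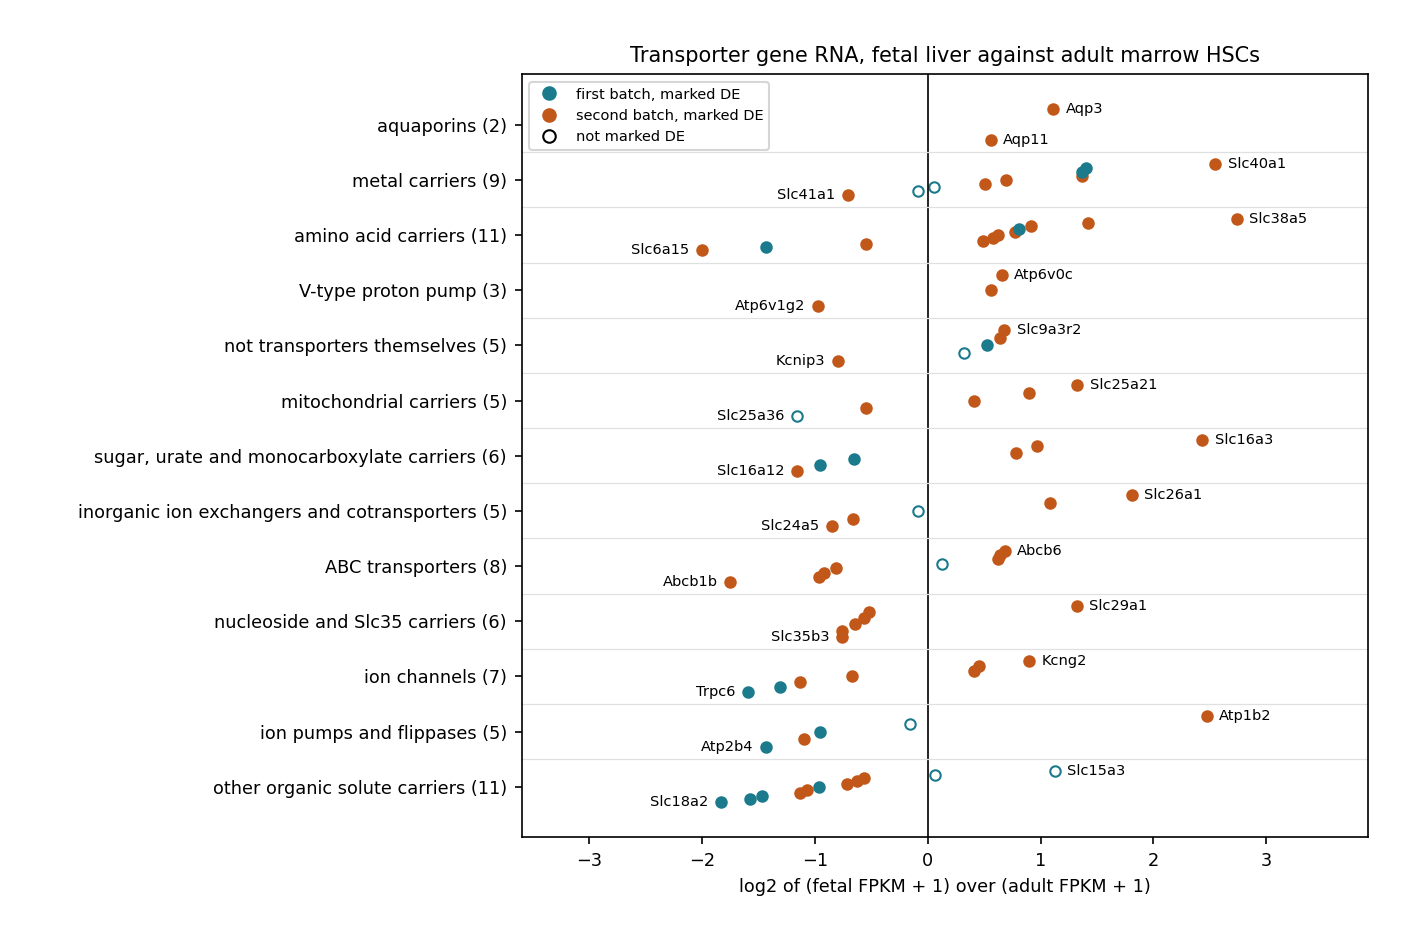
Difference in RNA between fetal liver and adult marrow HSCs for 83 genes by transporter class, as log2 of (fetal FPKM + 1) over (adult FPKM + 1), with 1 promoter per gene and the number of genes in parentheses. Filled points bear the mark of differential expression (DE) of the authors' deposited table, colours give the batch, and the outermost genes of each class are named. The 11 other organic solute carriers lie mostly left of 0 and the amino acid and metal carriers mostly right of it.

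Amino acid carriers were mostly higher in fetal cells. Of 11 genes, 8 were marked higher in fetal and 3 higher in adult HSCs. Of the 12 promoters 9 are second-batch ones, all of which bear the mark. Over all promoters 48.0% of first-batch and 45.9% of second-batch ones were higher in fetal cells. These shares stand beside the class counts here and below. Slc38a5, a glutamine and small neutral amino acid carrier, had 11.2 FPKM in fetal and 0.825 in adult cells, a difference of 2.74 on the log2(FPKM + 1) scale. Slc6a9, the glycine carrier GlyT1, which supplies glycine for haem synthesis in red cell precursors, had 2.57 against 0.329. The uptake genes on the list of amino acid importers for growth were captured in 2 of 7 cases and both were higher in fetal cells. Slc7a5, the large neutral amino acid importer LAT1, stood at 20.1 against 11.4 FPKM. Slc7a1, the arginine and lysine importer CAT1, stood at 7.01 against 4.35. The carriers that ran the other way were Slc6a15, at 0.242 fetal and 3.98 adult FPKM, Slc36a4 (0.833 and 1.68) and Slc7a4 (0.975 and 4.34).

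Metal carriers were also mostly higher in fetal cells, with 7 of 9 genes higher there and 6 marked so. Of the 9 promoters 5 are second-batch ones, all of which bear the mark. Slc40a1 encodes ferroportin, the iron exporter, and had 8.33 FPKM in fetal against 0.594 in adult cells. Slc11a2, the iron importer DMT1, had 8.97 against 2.86. Slc11a1, a phagosomal metal carrier of macrophages, had 1.73 against 0.0308. The zinc and manganese importer Slc39a8 had 3.95 against 0.922. Slc41a1, a magnesium carrier, was the single metal carrier marked higher in adult cells (1.90 against 3.75).

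The list of iron, haem and red cell carriers crosses the classes, and 9 of its 19 genes were captured. Of these 8 were higher in fetal cells, against 48.0% of all first-batch and 45.9% of all second-batch promoters. All 9 bear the mark of differential expression, but 7 are second-batch genes, where every promoter does. Besides Slc40a1, Slc11a2 and Slc39a8, these were Abcb6 (3.82 against 2.01 FPKM) and Abcb10 (5.57 against 3.27), ABC proteins tied to porphyrin transport and to haem synthesis in mitochondria, and Slc25a38, the mitochondrial glycine carrier (6.09 against 2.80). The remaining fetal-high members were the glucose carrier Slc2a1 (12.6 against 5.93) and the nucleoside carrier Slc29a1 (27.4 against 10.4). Slc14a1, the urea carrier that carries the Kidd blood group in people, went the other way with 9.68 FPKM in fetal and 28.7 in adult cells. Of iron and haem genes with other names, 7 of 20 were captured, 6 of them higher in fetal cells and 5 marked so. Among these, Alad, an early enzyme of haem synthesis, had 47.6 against 18.0 FPKM, and Steap3, an endosomal iron reductase, had 14.2 against 3.29.

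Captured markers of other cell types were also higher in fetal cells, against 48.0% of all first-batch and 45.9% of all second-batch promoters. Erythroid markers were captured in 7 of 8 cases, and all were higher in fetal cells, with sums of 94.5 against 25.7 FPKM. Of these 7 genes 5 were marked so. Tfrc, unmarked, is also on the list of iron and haem genes with other names. Their globin genes were low, with Hba-a1 at 6.27 and Hbb-b1 at 6.26 FPKM in fetal cells. All 6 captured macrophage markers of 8 were higher in fetal cells, summing to 32.9 against 2.34, and all 3 captured granulocyte markers of 4 summed to 71.2 against 5.18. HSC markers, captured in 8 of 10 cases, were present in both groups with sums of 177 and 277 FPKM. Of these 8 genes, 2 were higher in fetal and 6 in adult cells, with 1 and 4 marked so. None of 4 hepatocyte and none of 4 lymphoid markers was among the captured promoters. The part of other cells in the fetal-high iron, haem and macrophage-associated carriers was not tested, and more cells of a type cannot be told apart from more RNA per cell.

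Other organic solute carriers were mostly higher in adult cells. Of 11 genes 9 were higher in adult HSCs, all of them marked. Of the 12 promoters 5 are second-batch ones, all of which bear the mark. Slc18a2, the vesicular monoamine carrier VMAT2, had 4.77 FPKM in fetal against 19.5 in adult cells. Slc22a3, a polyspecific organic cation carrier, had 6.58 against 13.8, and Slc27a6, a fatty acid carrier, had 0.722 against 4.14. Slc23a2, a vitamin C carrier, stood at 2.39 against 4.23.

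Ion pumps and flippases, which move calcium, sodium, potassium or phospholipids at the cost of ATP, were higher in adult cells for 4 of 5 genes. Among those 4 genes 3 were marked so, while Atp8b2, at 6.43 fetal against 7.31 adult FPKM, was not marked. The endoplasmic reticulum calcium pump Atp2a3 had 23.0 FPKM in fetal against 50.3 in adult cells. The plasma membrane calcium pump Atp2b4 had 6.39 against 19.0. Atp1b2, a β subunit of the sodium and potassium pump, was the exception with 11.0 FPKM in fetal and 1.16 in adult cells. Ion channels divided into 3 genes higher in fetal and 4 higher in adult cells. Among the latter, the cation channel Trpc6 had 2.76 against 10.4 FPKM, Trpm7, a magnesium-permeable channel with a kinase domain, 4.31 against 12.2, and Kcna3, a voltage-gated potassium channel, 1.44 against 4.34.

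Sugar, urate and monocarboxylate carriers divided into 3 genes higher in fetal and 3 higher in adult cells. On the lactate, glucose and mitochondrial list 2 of 8 genes were captured, and both lactate carriers were higher in fetal cells. Slc16a3, the lactate exporter MCT4, had 11.0 against 1.22 FPKM, and Slc16a1, MCT1, had 12.5 against 6.84. Slc2a9, a urate carrier, and Slc50a1, a sugar carrier, were higher in adult cells (1.75 against 4.32 and 28.9 against 46.0). The sulfate carrier Slc26a1 had 3.42 against 0.263.

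ABC transporters, which couple export to ATP hydrolysis, were even, with 4 of 8 genes higher in each group. On the list of efflux pumps 1 of 6 genes was captured, Abcb1b, a P-glycoprotein gene that expels foreign compounds and stem cell dyes. It had 0.198 FPKM in fetal and 3.03 in adult cells. Its 3 calls in each group included adjacent bins 139 and 137 kb away with 5437 and 1935 counts in fetal and 4960 and 1730 in adult cells, all with infinite scores. These values are uncertain, because the similar gene Abcb1a lies beside Abcb1b and reads of the pair may be exchanged, which was not tested. Members of the acid pump of lysosomes, Atp6v0c and Atp6v1b2, were higher in fetal cells (77.9 against 49.1 and 17.8 against 11.8 FPKM) and Atp6v1g2 in adult cells (0.868 against 2.67).

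Promoter windows of 300 bases, 250 before and 50 after the transcription start, were available for 68 of the 83 genes (100 windows, RefSeq, GRCm38.p6). Those of 4 genes to which the contact results return are shown, with DpnII sites (GATC) and E-boxes (CACGTG) in capitals. The captured fragments are given in mm9, and which RefSeq start each of them holds was not determined.
Slc38a5, chrX:8271131-8271430, plus strand: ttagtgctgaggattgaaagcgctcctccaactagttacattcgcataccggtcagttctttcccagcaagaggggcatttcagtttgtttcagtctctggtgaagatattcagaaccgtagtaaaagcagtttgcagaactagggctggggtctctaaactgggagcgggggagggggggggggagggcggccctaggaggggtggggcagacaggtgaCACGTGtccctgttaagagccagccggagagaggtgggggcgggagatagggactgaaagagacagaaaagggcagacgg
Slc16a3, chr11:120948817-120949116, plus strand: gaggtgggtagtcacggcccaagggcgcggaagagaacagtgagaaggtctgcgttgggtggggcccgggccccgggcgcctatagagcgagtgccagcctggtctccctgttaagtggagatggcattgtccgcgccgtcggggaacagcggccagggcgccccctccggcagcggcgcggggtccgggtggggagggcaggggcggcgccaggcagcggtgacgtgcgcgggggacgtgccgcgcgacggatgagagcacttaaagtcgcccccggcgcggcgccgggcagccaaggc
Slc7a1, most upstream start, chr5:148399855-148400154, minus strand: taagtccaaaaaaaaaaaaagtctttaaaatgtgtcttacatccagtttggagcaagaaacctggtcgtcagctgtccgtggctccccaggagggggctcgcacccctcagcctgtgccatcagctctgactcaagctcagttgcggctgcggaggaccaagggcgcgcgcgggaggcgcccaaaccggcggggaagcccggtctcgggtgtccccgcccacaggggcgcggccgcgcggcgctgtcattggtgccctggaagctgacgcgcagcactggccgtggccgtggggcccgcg
Slc29a1, most upstream start, chr17:45599569-45599868, minus strand: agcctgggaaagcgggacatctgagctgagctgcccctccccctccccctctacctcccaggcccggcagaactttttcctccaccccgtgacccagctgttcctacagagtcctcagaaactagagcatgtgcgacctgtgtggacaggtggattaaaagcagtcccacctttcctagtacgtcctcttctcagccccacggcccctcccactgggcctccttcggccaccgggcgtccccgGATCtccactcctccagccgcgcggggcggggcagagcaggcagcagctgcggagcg
The Slc38a5 window holds 1 CACGTG and the Slc29a1 window 1 GATC, while those of Slc7a1 and Slc16a3 hold neither. The windows of Slc16a3 and Slc7a1 are rich in CpG, with 36 and 27 CpG pairs, against 10 for Slc38a5. Over all transporter windows the median was 17 CpG pairs and 60.8% GC, against 7 and 52.7% over all 32851 mouse windows. A DpnII site lay in 54 of the 100 transporter windows and in 48.0% of all windows. The E-box core CACGTG lay in 13.0% of transporter windows and 7.15% of all windows. The motif AGATAA of GATA factors lay in 9.0% and 11.2%, and the motif CAGGAA of ETS factors lay in 31.0% and 30.6%. Both strands were searched, the DpnII site and the E-box read alike on both, and no motif of the 4 lies within another. These are matches of letters in unselected windows of genes that were captured as HSC promoters, so the higher CpG content is not set against other captured promoters.

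Total numbers of contacts were close between the groups, while single transporter promoters varied more. First-batch transporter promoters had 460 fetal and 410 adult calls, a ratio of 1.12, where all promoters of that batch gave 1.06. Of the 28 promoters 17 (60.7%) had more fetal calls against 48.1% of all, 9 (32.1%) more adult calls against 42.1% of all, and 2 equal numbers. Second-batch calls numbered 833 and 811, a ratio of 1.03 against 1.07 for all promoters. There 30 of 60 (50%) had more fetal calls, as had 50.1% of all, 24 (40.0%) had more adult calls against 38.1% of all, and 6 were equal. Calls differed by more than 0.5 on the log2(calls + 1) scale at 12 of 28 first-batch and 32 of 60 second-batch promoters, against 838 of 1952 and 763 of 1829 of all. Among transporter promoters with unequal numbers, 55.6% had more fetal calls in the second batch, which fell to 43.5% when a p 10 times smaller was required.

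**Figure D2:**
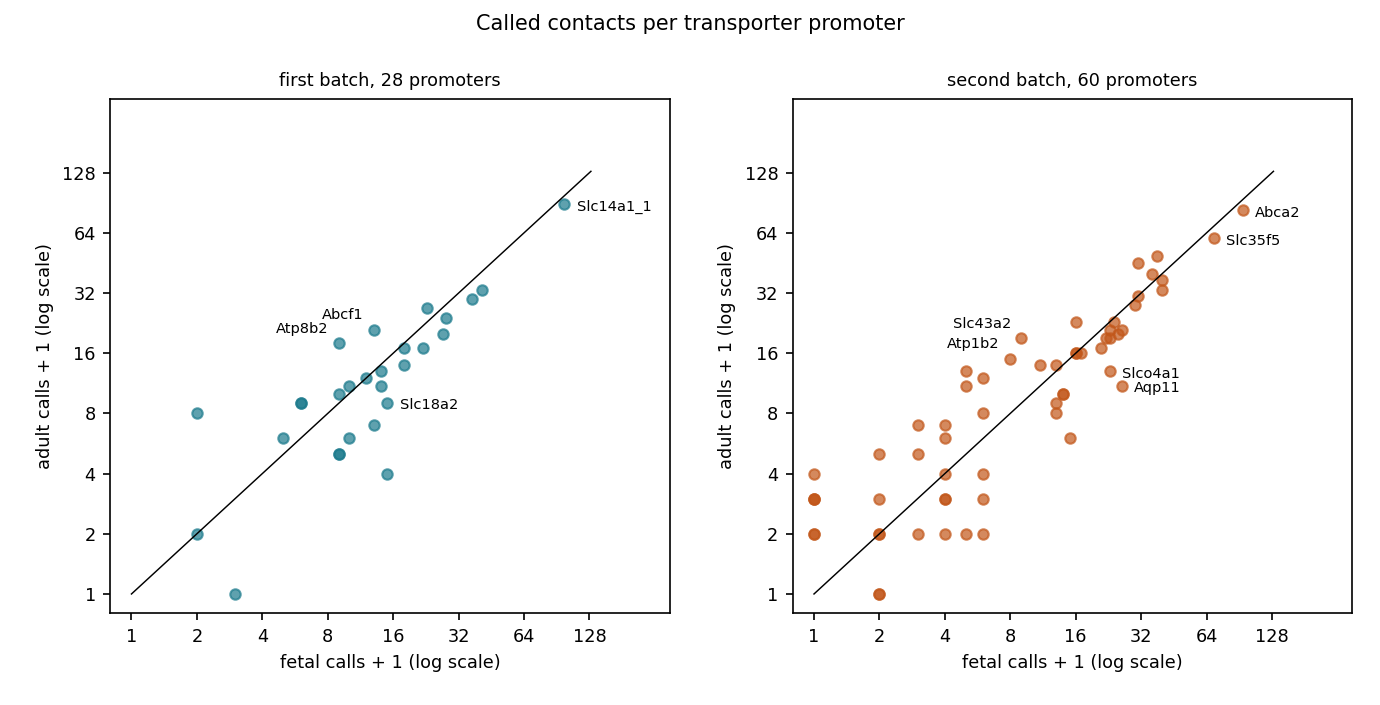
Called contacts per transporter promoter in fetal (x axis) and adult (y axis) HSCs, each plus 1 on log scales, by batch; each point is a promoter and the line marks equal numbers. Points scatter on both sides of the line, Slc14a1_1 (97 and 88 calls) and Abca2 (93 and 82) are at the upper end, and Aqp11 and Slc43a2 lie off the line on opposite sides.

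The promoters with most calls had them in both groups. The second listed promoter of the urea carrier gene, Slc14a1_1 (chr18:78338596-78339396, mm9), had 97 fetal and 88 adult calls, 75 of them at the same bins. Abca2, an endosomal lipid transporter of the A family (chr2:25283980-25285784), had 93 and 82, with 63 in common. Slc35f5, a carrier of the nucleotide sugar carrier family (chr1:127457427-127458026), had 68 and 59, with 54 in common. RNA of all 3 was higher in adult cells, while each had more fetal than adult calls.

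Aqp11, an aquaporin of intracellular membranes (chr7:104886398-104886911), had the largest fetal excess among promoters with at least 20 calls, with 25 fetal and 10 adult calls. Its contacts were fetal-specific at 19 bins, adult-specific at 4 and shared at 6. The excess lay toward higher coordinates, between 92.3 and 404 kb, where fetal calls numbered 23 and adult calls 7, on 588 and 362 counts. Its strongest contact, 158 kb away at an active promoter bin, was called in both groups with 47 fetal and 35 adult counts. Slco4a1, an organic anion carrier, had 22 fetal and 12 adult calls, although its RNA was higher in adult cells (1.22 against 3.69 FPKM). Slc18a2 had 14 and 8 calls with RNA again higher in adult cells. Its fetal-specific contacts rested on 6 to 17 counts against 2 to 6 adult counts. The scaffold gene Slc9a3r1 (12 and 8 calls) and the proton pump gene Atp6v1b2 (13 and 9) completed the 5 largest fetal excesses.

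Among adult excesses the largest was at Slc43a2, a carrier of large neutral amino acids (chr11:75379708-75380982), with 8 fetal and 18 adult calls. It had 12 adult-specific and 2 fetal-specific contacts, while its listed contacts held 779 fetal and 782 adult counts. The adult call with the highest score, 33.3 kb away at a bin marked as an active enhancer in both groups, had 83 adult counts and 45 fetal counts. Atp8b2, a phospholipid flippase, had 8 and 17 calls, and its strongest contact, at the promoter of the tropomyosin gene Tpm3 118 kb away, was called in both groups on 44 fetal and 43 adult counts. Atp1b2 had 7 and 14 calls while its RNA was 11.0 against 1.16 FPKM. Abcf1 had 12 and 20 calls with 73.5 against 50.7 FPKM. Slc29a1 (chr17:45732139-45733821) had 30 and 44 calls with 27.4 against 10.4 FPKM. In 4 of these 5 genes RNA was thus higher in the group with fewer calls, and the largest fetal excesses included 2 such genes of 5.

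Calls and RNA were not ordered alike over the transporters. Among marked first-batch promoters with unequal calls, 7 of 18 (38.9%, interval 17.3 to 64.3) had more calls in the group with more RNA, against 49.1% of all such promoters in the batch. The second-batch count was 27 of 54 (50%, interval 36.1 to 63.9) against 52.5% of all. The 12 genes with the largest RNA differences, 6 in each direction, ranged widely in calls. At one end Slc14a1_1 had 97 and 88 calls, Slc16a3 22 and 20, and Slc6a9 20 and 16. At the other, Slc38a5 had 2 fetal and 4 adult calls, none shared, Slc40a1 had 1 and 2, Slc26a1 had 0 and 2, and Slc6a15 had 0 and 1. Of the 12 genes 4 had 5 or fewer listed contacts, against 21 of all 88 transporter promoters. At Abcb6 (chr1:75176157-75176999) all 4 fetal calls were shared and 8 further contacts were called in adult cells alone, with RNA higher in fetal cells. By class, 6 of 12 transporter classes had more fetal calls in total, 5 more adult calls, and the proton pump 63 of each. These totals join both batches, whose smallest called scores differ, and can rest on a single promoter. ABC transporters had 135 and 113 calls, of which Abca2 had 93 and 82. Aquaporins had 40 and 25, where Aqp11 had 25 and 10 and Aqp3 had 15 in each group. Ion channels had 54 and 62. Metal carriers had 109 and 115, of which Slc31a1 had 37 and 48.

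Contacts called in both groups made up about the same share at transporter promoters as over all promoters. In the first batch 173 of 697 contacts (24.8%) were called in both groups against 25.7% of all, 287 (41.2%) in fetal cells only against 38.9% of all, and 237 (34.0%) in adult cells only against 35.4% of all. In the second batch 445 of 1199 (37.1%) were called in both against 37.1% of all, 388 (32.4%) in fetal cells only against 33.8%, and 366 (30.5%) in adult cells only against 29.1%. The first-batch share rested largely on 1 gene. The promoters of Slc14a1 held 84 of the 173 shared contacts, and without them, an alternative chosen after the data were seen, 16.2% of contacts (89 of 548, interval 13.3 to 19.6) were called in both. The shared contacts were the stronger ones, with median fetal scores of 3.17 and 4.47 by batch, against 1.94 and 2.63 for fetal-specific contacts. By batch, 66.9% and 62.9% of fetal-specific contacts lay within 1 score unit of the smallest called score, as did 69.2% and 57.7% of adult-specific ones. A contact specific to a group is one called there and not in the other. First-batch medians were 9 fetal against 4 adult counts at fetal-specific contacts and 6 against 10 at adult-specific ones. Second-batch medians were 25 against 14 and 20 against 26. The count was at least as high in the group without the call at 2 of 287 and 4 of 388 fetal-specific contacts and at 8 of 237 and 66 of 366 adult-specific ones. The last share, 18.0%, was 17.1% over all promoters.

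Fetal contacts reached farther than adult contacts at most transporter promoters, as they did over all promoters. First-batch median distances were 167 kb for fetal and 144 kb for adult calls, and second-batch medians 92.0 and 68.4 kb. Where each group had 3 or more contacts within a chromosome, the fetal median was the longer in 17 of 23 (73.9%) in the first batch against 68.3% of all, and in 31 of 37 (83.8%) in the second against 84.7% of all. In the second batch only 26 fetal-specific but 189 adult-specific contacts lay at 20 to 60 kb, while 113 fetal-specific and 37 adult-specific contacts lay beyond 150 kb. The same split by distance held over all promoters of that batch at 20 to 60 kb, with 969 fetal-specific and 5241 adult-specific contacts. When contacts up to 60 kb were left out, an alternative chosen after the data were seen, 75.0% of second-batch transporter promoters with unequal calls had more fetal calls, against 79.5% of all second-batch promoters.

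**Figure D3:**
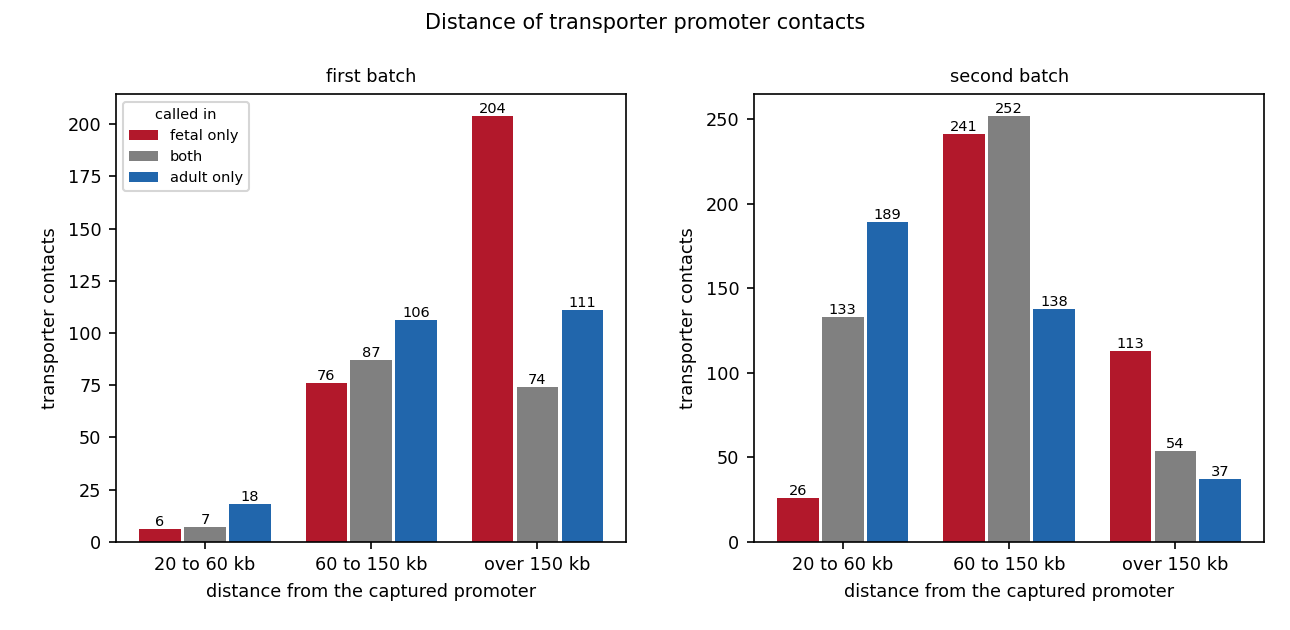
Number of transporter promoter contacts (y axis) by distance from the captured promoter (x axis) and by the group that called them, in each batch. Adult-only contacts outnumber fetal-only contacts at 20 to 60 kb (189 against 26 in the second batch), and fetal-only contacts outnumber adult-only contacts beyond 150 kb (204 against 111 and 113 against 37).

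The arginine and lysine importer gene Slc7a1 (chr5:149211293-149211946, mm9) had a different balance of calls on its 2 sides. It had 39 fetal and 32 adult calls, 20 of them fetal-specific, 13 adult-specific and 19 shared. Toward lower coordinates 15 fetal and 21 adult calls were made, and toward higher coordinates 24 fetal and 11 adult calls. The deposited annotation marked 10 of its distal bins as active enhancers in fetal cells and not in adult cells, the most of any transporter promoter, and none as active in adult cells. A run of 5 adjacent bins between 87.4 and 95.4 kb carried this mark, with 4 contacts called in fetal cells only and 1 in both. The bin at 87.4 kb had 33 fetal and 7 adult counts, whereas that at 89.4 kb had 20 in each group and differed in its call alone. Over the 10 bins the counts were 299 fetal and 208 adult, with 6 fetal-specific, 1 adult-specific and 3 shared contacts.

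Slc29a1 had the reverse balance of calls with marked bins on both sides. Of its 52 listed contacts 22 were shared, 22 adult-specific and 8 fetal-specific. The listed counts were nevertheless higher in fetal cells, at 2124 against 1901. Its 5 bins marked as active enhancers in fetal cells alone were called in fetal cells only at 2, in adult cells only at 2 and in both at 1, on 300.0 fetal and 226 adult counts. Slc16a3, the lactate exporter gene (chr11:120809804-120810548), had 22 and 20 calls of which 7 were shared. Its strongest fetal contact, 125 kb away with 49 fetal and 28 adult counts, lay at a bin marked as an active enhancer in fetal cells alone and was called in both groups.

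**Figure D4:**
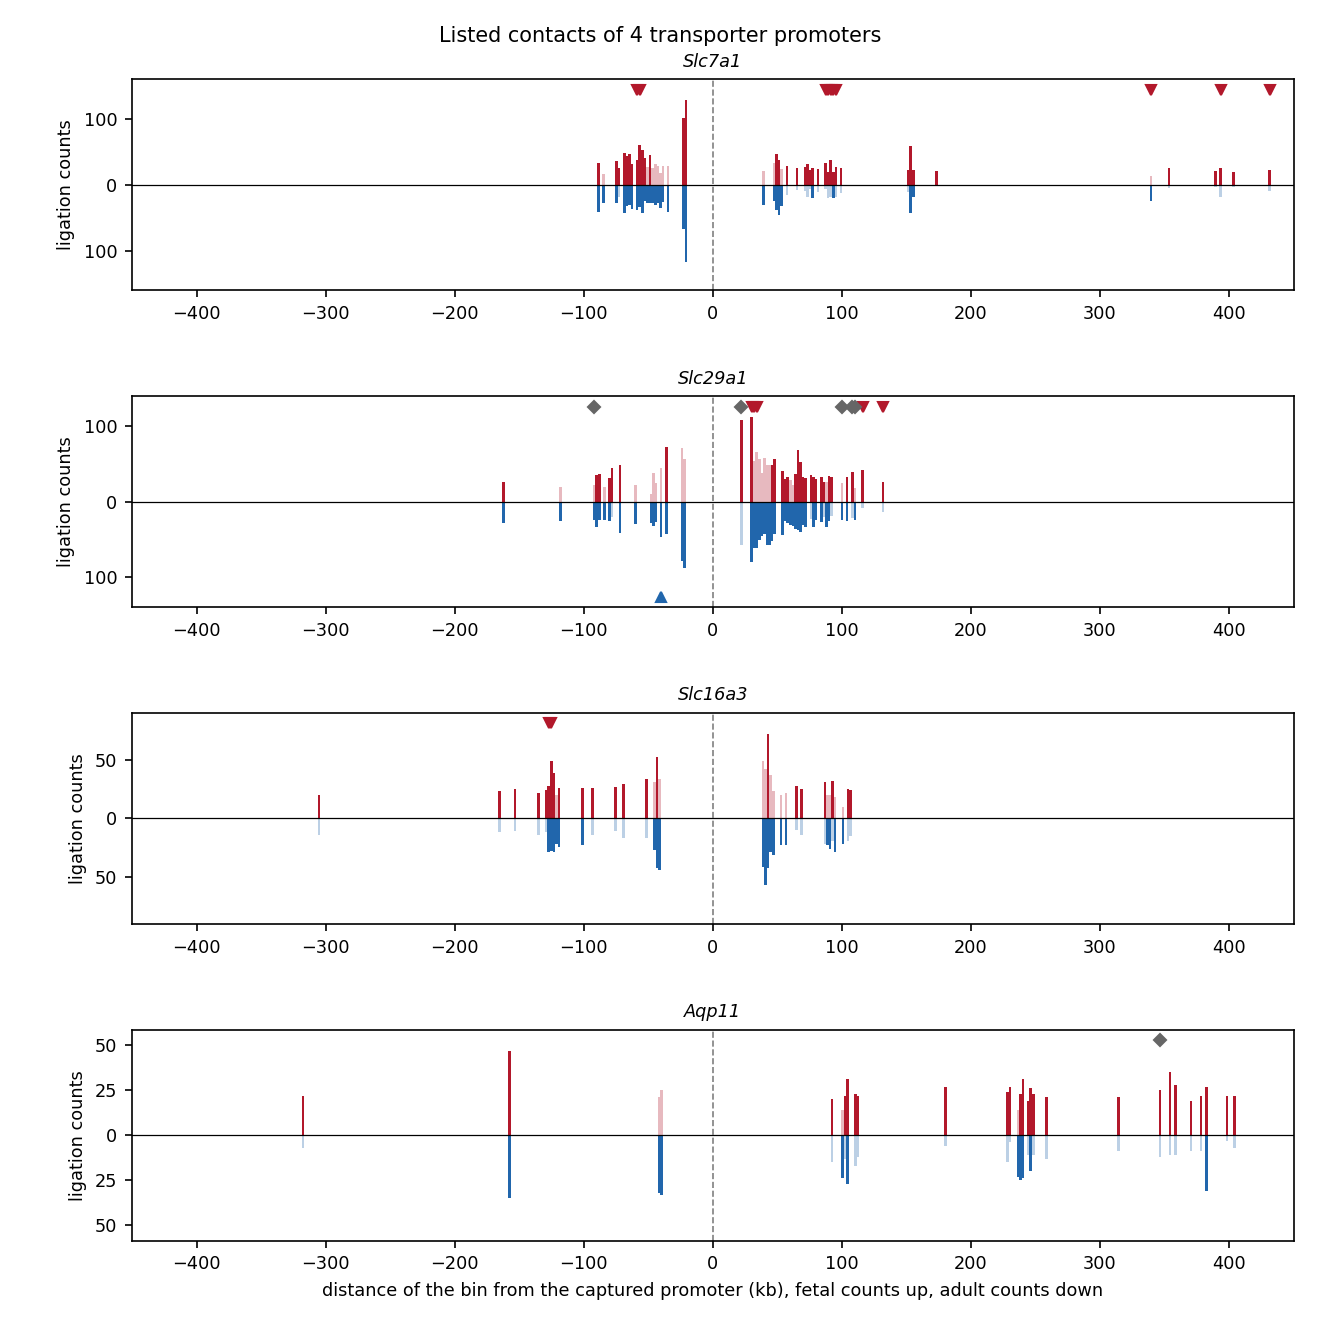
Listed contacts of Slc7a1, Slc29a1, Slc16a3 and Aqp11 by distance from the captured promoter in kb (x axis, those beyond the axis left out), with fetal ligation counts upward and adult counts downward; solid bars are called in that group and pale bars are not. Red triangles mark bins annotated as active enhancers in fetal cells alone, blue triangles in adult cells alone and grey diamonds in both; Slc7a1 has 10 red triangles, and the Aqp11 contacts beyond 92.3 kb are mostly solid in fetal cells alone.

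Active enhancer bins made up similar shares of the contacts of both groups. In the first batch 12.0% of fetal calls lay at bins marked as active enhancers in fetal cells and 12.2% of adult calls at bins so marked in adult cells. Over all promoters these shares were 12.7% and 13.1%. The second batch gave 11.4% and 10.7% for transporters, and 12.9% and 13.7% for all promoters. Open chromatin, measured by ATAC, lay at 47.8% and 52.0% of transporter contacts in the first batch and at 54.7% and 54.3% in the second, where all promoters gave 53.0% and 54.6%, and 56.7% and 57.2%. Active promoter bins were less frequent at fetal transporter contacts of the first batch, at 7.83% (interval 5.54 to 10.7) against 15.6% of all fetal calls. For adult calls of that batch the share was 13.9% (interval 10.7 to 17.6) against 18.3% of all. Second-batch shares are not given here. Without Slc14a1, whose fetal contacts lay at such bins in 3 of 119 cases, the fetal share was 9.68% (interval 6.76 to 13.3). The adult share without it was 17.9% (interval 13.7 to 22.8), near that of all adult calls.

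Bins marked as active enhancers in 1 group alone were few at transporter promoters, as over all promoters. In the first batch, bins active in fetal cells alone held 25 of 697 transporter contacts, against 2119 of 49944 over all. Those active in adult cells alone held 15 and 1614. At bins active in fetal cells alone, fetal-specific contacts were 15 of 21 group-specific ones (71.4%, interval 47.8 to 88.7) in the first batch and 25 of 37 (67.6%, interval 50.2 to 82.0) in the second, where all promoters gave 54.9% and 59.6%. The 25 second-batch contacts came from 14 promoters, 6 of them from Slc7a1. At bins active in adult cells alone, fetal-specific contacts were 5 of 11 in the first batch (45.5%, interval 16.7 to 76.6), 3 of them from Slc14a1_1, where all promoters gave 43.4%. The second batch had 3 of 20 (15.0%, interval 3.21 to 37.9) where all promoters gave 40.2%. The 17 adult-specific contacts of the second batch came from 12 promoters, 3 of them from the magnesium carrier Slc41a3.

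The strongest contact beyond 20 kb was called in both groups at 33 of 52 second-batch promoters in fetal and 29 of 55 in adult cells, and at 12 of 27 and 11 of 27 first-batch promoters. This was not counted over all promoters, so it is not read as a trait of transporters. Shared contacts had the higher scores, so picking the strongest contact favours shared ones. Of all transporter calls 53.4% of fetal and 54.9% of adult ones were shared in the second batch, and 37.6% and 42.2% in the first. Slc35f5 had its strongest contact in both groups at the same bin, 125 kb away, with 160 fetal and 188 adult counts. Slc7a5 had its own at 56.4 kb in both groups, a bin marked as an active enhancer in fetal cells alone, with 183 and 116 counts. Slc31a1, the copper importer CTR1, had its own 47.8 kb away at an active promoter bin with 179 and 129 counts.

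Transporter promoters also contacted the captured promoters of other genes. Such a promoter lay in 94 of the distal bins, reached from 47 transporter promoters. This made 81 pairs of a transporter promoter and a partner gene, and 61 pairs were also listed from the partner. Both captured promoters of Slc7a4 contacted Smpd4 and are counted apart. Of the 94 bins 44 (46.8%) were called in both groups, 23 in fetal cells only and 27 in adult cells only, against 46.6% called in both over all promoters. Where both genes of a pair were marked as differentially expressed, 36 of 52 pairs (69.2%, interval 54.9 to 81.3) had RNA higher in the same group, against 63.5% of 2464 such pairs over all promoters. Both genes were higher in fetal cells in 25 pairs and in adult cells in 11, against 885 and 679 of the 2464 pairs over all promoters.

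A few pairs, chosen after their values were seen, illustrate these contacts. Among pairs with both genes higher in fetal cells, Slc31a1 contacted the promoter of the haem synthesis gene Alad 160 kb away with 67 fetal and 87 adult counts, called in both groups. RNA of Slc31a1 was 4.42 against 2.81 FPKM. Slc2a1 contacted Ccdc23 at 88.0 kb (56 and 54 counts), Abcb10 contacted Nup133, a nuclear pore gene, at 34.0 kb (86 and 118), and Slc6a9 contacted B4galt2, a galactosyltransferase gene, at 49.5 kb (103 and 79). Among pairs higher in adult cells, the calcium pump gene Atp2a3 contacted P2rx1, an ATP-gated channel gene, at 38.3 kb with 99 fetal and 97 adult counts. Abca2 contacted Npdc1 at 25.9 kb with 159 and 137 counts. Slc16a1 and Lrig2, a membrane protein gene, ran opposite ways in RNA (Lrig2 at 0.911 against 1.70 FPKM) and were in contact in both groups at 127.7 kb with 96 and 77 counts.

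For 5 genes a pair of promoters was captured, and the 4 pairs described here overlapped to different degrees. At Slc14a1, with promoters 18.1 kb apart, 21 of the 22 fetal calls of one promoter lay at bins also called from the other, which had 97, and in adult cells this held for 25 of 26 against 88. At the calcium pump gene Atp2b4 the fragments were 123 bp apart and had 6 bins in common in each group, of 27 and 13 fetal and 23 and 10 adult calls. The adjoining fragments of Slc7a4 had 1 fetal bin in common of 17 and 5, and 3 adult bins of 13 and 8. The promoters of the flippase gene Atp11b, 34.0 kb apart, had none. Neighbouring members of the ABC family, Abca5 and Abca9, had listed contacts at the same 2 bins, chr11:109732001-109734001 and chr11:109738001-109740001.

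One gene below the limit of 20 calls is given after its values were seen. The urate carrier gene Slc2a9 (chr5:38870944-38871475) had 14 fetal and 3 adult calls. Of these, 9 fetal calls lay in bins between 160 and 194 kb on the side of lower coordinates, where 1 contact was called in adult cells. Its strongest fetal contact, 172 kb away with 19 fetal and 12 adult counts, was called in both groups. RNA of Slc2a9 was higher in adult cells.

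Counts over the listed contacts were higher in fetal cells in both batches, with ratios of fetal to adult counts of 1.08 in the first and 1.16 in the second. Scaled by the totals over all listed contacts of each batch, the ratios were 0.904 and 1.05, so that the first-batch direction turned. No direction is therefore given for the strength of transporter contacts as a whole.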

How the data were processed

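Promoter Capture-C had been run on 8 HSC libraries. Per the submitters' processing notes, Trim Galore 0.41 and Bowtie2 2.2.2 were used and the build was mm9; the caller, per the file name of the deposited table, is LiMACC, and its settings are not given in the sources used here. Each contact has a deposited score by group, on a scale like −log10 of a p-value. The authors also deposited whole-number counts per contact, pooled over libraries in a way not stated, FPKM values per promoter, and other 0 or 1 marks of enhancers, promoters and open chromatin. All value columns were assigned, leaving 0 unassigned. A promoter appears only if it has a listed contact.

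A call is a score above 0, and distances run between the middles of fragment and bin. Python 3.11.15, pandas 2.3.3, NumPy 2.4.6 and SciPy 1.17.1 were used, and calling and overlap code was tested on simulated data. Ratios are log2 after adding 1 to calls or FPKM, so low genes change less on this scale. With pooled values no test between groups was possible, so shares carry exact 95% Clopper-Pearson intervals. PCR reads are not independent molecules, and the intervals cover counting error only. The listed counts are not library depths.

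Members and lists were chosen with earlier results of these data known. Named genes were, of promoters with 20 calls or more, the 5 most unequal in calls either way by log2 ratio, the 3 with most calls in each group, the 6 genes with the largest FPKM difference in each direction at an FPKM of at least 1, and the captured genes of the lists. The contacts of 1 pair of alternative promoters are not reported here. Further genes were added to describe each class, and were chosen after their values were seen. Promoter windows come from RefSeq (GRCm38.p6) by symbol, which matched all 83 genes in the gene table. Alternatives were a p 10 times smaller (scores of 2.3 and 3.0), tolerances of 5 and 20 kb for shared bins, other pseudocounts (0.5 on calls, 0.1 and 5 on FPKM), an FPKM filter of 1, 1 promoter per gene, merging of neighbouring bins and scaled counts.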

Additional observations from a re-analysis of the deposited data

How the results depend on the processing

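No paired analysis was possible because the deposited values are pooled over the libraries of a batch and no column carries a replicate number; for the same reason no library could be left out. Of 82 alternative values for 25 results, 60 were classed as the same, 19 as moved and 3 as turned in direction. The 60 do not measure robustness. Same did not mean unchanged. With a p 10 times smaller, the share of marked promoters with more calls where RNA was higher rose from 38.9% to 46.7% (first batch). The second-batch share rose from 50% to 56.5%. Some values could not differ: a pseudocount of 0.1 on FPKM cannot change which group has more RNA. Leaving out contacts of at least 1000 counts left the first-batch count ratio at 1.08. Requiring a p 10 times smaller turned the second-batch share of promoters with more fetal calls from 55.6% to 43.5%, took the median log2 ratio of calls there from 0.03 to 0, and moved the first-batch share of fetal calls at active enhancers from 12.0% to 15.8%. Taking 1 promoter per gene also gave a median of 0 there, and leaving out contacts up to 60 kb, added after the data were seen, gave 75.0%. Counting bins within 5 kb as shared moved the share of fetal calls called in both groups from 37.6% to 60.9% in the first batch and from 53.4% to 74.1% in the second, and of adult calls from 42.2% to 64.1% and from 54.9% to 77.9%. Within 20 kb these shares were 78.5%, 85.7%, 80.5% and 91.4% in the same order. Without Slc14a1, chosen after the data were seen, the first-batch shares were 26.1% of fetal and 30.1% of adult calls. The median log2 FPKM ratio moved with a pseudocount of 5 from -0.94 to -0.62 in the first batch and from 0.47 to 0.19 in the second, and with 1 promoter per gene to -0.41 in the first. Scaling by the batch totals took the count ratio from 1.08 to 0.904 in the first batch and from 1.16 to 1.05 in the second, and to 0.966 and 1.03 when contacts of at least 1000 counts were left out of the totals, an alternative added after the data were seen. The causes were not tested. Specific contacts rested on few counts, with first-batch medians of 9 (fetal) and 10 (adult) and second-batch medians of 25 and 26.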
